A study of Talpa occidentalis and Mus musculus with 35 samples.

Results

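The collagen genes of the Iberian mole, Talpa occidentalis, were read from the deposited annotation of the genome assembly talOcc3. A gene line was taken as a collagen when its name, stripped of the suffixes for low confidence and further copies, read COL, a number, A and a number. Of 23336 gene lines, 61 met this rule, and they carried 40 different symbols. The locus with the highest deposited score of a symbol is called its best locus, and the values below are those of the best loci unless stated otherwise. The annotation gives positions, exons and an alignment score for each model and no value per library, so the collagens are described here as gene models, with no replicates and no test. Exons of 1 gene share their source, and the intervals printed for shares are exact binomial intervals at 95% that cover counting error only.

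The series itself holds 35 polyadenylated RNA libraries of gonads in 16 groups, of which 19 libraries are from moles and 16 from mice (Mus musculus). The mole libraries are labelled wild type. Embryos at day 15 gave 2 libraries of ovotestis and 2 of testis, day 7 after birth gave 3 libraries for each of ovary part, testis part and testis, and adults gave 2 for each of these tissues. The mouse libraries are ovaries of an Fgf9 mutant at embryonic day 13.5 and of a wild type titled B6 at the same day, whose 4 strain labels run C57BL/6, C57BL/7, C57BL/8 and C57BL/9, and wild-type CD1 ovaries and testes from day 13.5 embryos, from pups of day 7 and from adults of 10 weeks. Each mouse group has 2 libraries. Library depth is unknown and the expression contrasts were not analysed here.

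Collagens are the structural proteins of the extracellular matrix, and each is built from chains that wind around one another as a triple helix. Only glycine is small enough for the centre of the helix, so the helical part of a chain repeats Gly-X-Y, with a glycine opening each triplet of residues, and a coding unit of 9 bases spells each repeat. In fibrillar collagen genes of vertebrates the helix is known to be encoded by many short exons, typically of 54 bases or of lengths related to it by whole repeats. In the gonads, fibrillar collagens make up the connective tissue around tubules and follicles, and type IV collagen makes up their basement membranes.

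The repeat can be seen in mouse exons whose length is the same in the mole model. The mole bases were not used here, so the mouse sequence is shown (GENCODE M21, GRCm38, coding strand), with capitals on the glycine codons that open each 9-base unit. The first 4 are exons 6, 9, 19 and 23 of Col5a2, a fibrillar chain on the minus strand of mouse chromosome 1, at chr1:45434892-45434945, chr1:45423682-45423726, chr1:45407702-45407800 and chr1:45406240-45406347. They have 54, 45, 99 and 2 times 54 bases, the 4 most frequent lengths in the mole fibrillar class, and the mole COL5A2 exons of the same numbers have the same lengths.
Col5a2 exon 6: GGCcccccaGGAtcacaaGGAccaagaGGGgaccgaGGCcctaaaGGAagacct
Col5a2 exon 9: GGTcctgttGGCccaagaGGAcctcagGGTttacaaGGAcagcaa
Col5a2 exon 19: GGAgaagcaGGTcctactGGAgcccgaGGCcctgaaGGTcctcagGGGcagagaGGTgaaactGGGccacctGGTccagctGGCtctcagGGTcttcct
Col5a2 exon 23: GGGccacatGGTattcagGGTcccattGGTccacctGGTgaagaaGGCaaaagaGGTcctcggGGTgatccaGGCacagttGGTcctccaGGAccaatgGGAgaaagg

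All 4 exons begin on a codon boundary and open with a whole glycine codon, so they hold 6, 5, 11 and 12 uninterrupted repeats. Over the mouse fibrillar genes, 525 internal exons were multiples of 9 and began on a codon boundary, and in 508 of them (96.8%) every 9-base unit opened with a glycine codon.

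The second arrangement is found in type IV collagen, the network former of basement membranes, and in type XVII collagen, a membrane protein of hemidesmosomes. In the next 4 exons the glycine codon is split, with its first base at the end of the exon before and its last 2 bases opening the exon. Exon 7 of mouse Col4a5 (chrX:141575988-141576041, plus strand) is shown first as the whole-codon form in the same gene as the split exons 32 and 34 (chrX:141631273-141631362 and chrX:141635854-141635952). Exons 21 and 24 of Col17a1 (chr19:47666481-47666543 and chr19:47664387-47664422, minus strand) are split as well.
Col4a5 exon 7: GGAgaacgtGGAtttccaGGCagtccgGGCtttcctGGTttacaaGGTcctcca
Col4a5 exon 32: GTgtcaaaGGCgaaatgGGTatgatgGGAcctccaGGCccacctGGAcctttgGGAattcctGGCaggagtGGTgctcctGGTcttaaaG
Col4a5 exon 34: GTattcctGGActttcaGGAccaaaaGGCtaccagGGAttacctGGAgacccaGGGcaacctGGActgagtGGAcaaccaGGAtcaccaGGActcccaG
Col17a1 exon 21: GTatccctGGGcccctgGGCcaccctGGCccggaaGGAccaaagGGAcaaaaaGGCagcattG
Col17a1 exon 24: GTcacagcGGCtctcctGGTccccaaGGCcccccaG

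Of 1467 internal coding exons in the 40 best loci, 944 had a length in multiples of 9 (64.3%, interval 61.8 to 66.8%), against 13.4% of the 130718 internal exons of all other named genes. Lengths of exactly 45 or 54 bases made up 33.7% of the collagen exons (495), against 0.683% in the other genes. A multiple of 3, which leaves the reading frame unchanged across the exon, was found in 86.0% of the collagen exons, against 39.7% in the other genes.

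The fibrillar collagens, which assemble into the banded fibrils of skin, bone, cartilage and stroma, held the highest share. Among their 545 internal exons, 445 were multiples of 9 (81.7%, interval 78.1 to 84.8%), and 319 had 45 or 54 bases (58.5%, interval 54.3 to 62.7%). A length of 54 bases alone accounted for 254 exons, 46.6% of the class. Lengths of 2 times 54 bases and of 45 bases followed with 66 and 65 exons, then 99 with 20. In the other named genes 54 bases was the length of 0.422% of internal exons. The mouse genes of the same 11 symbols gave shares close to those of the mole, 83.9% in multiples of 9 and 59.8% of 45 or 54 bases.

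**Figure D1:**
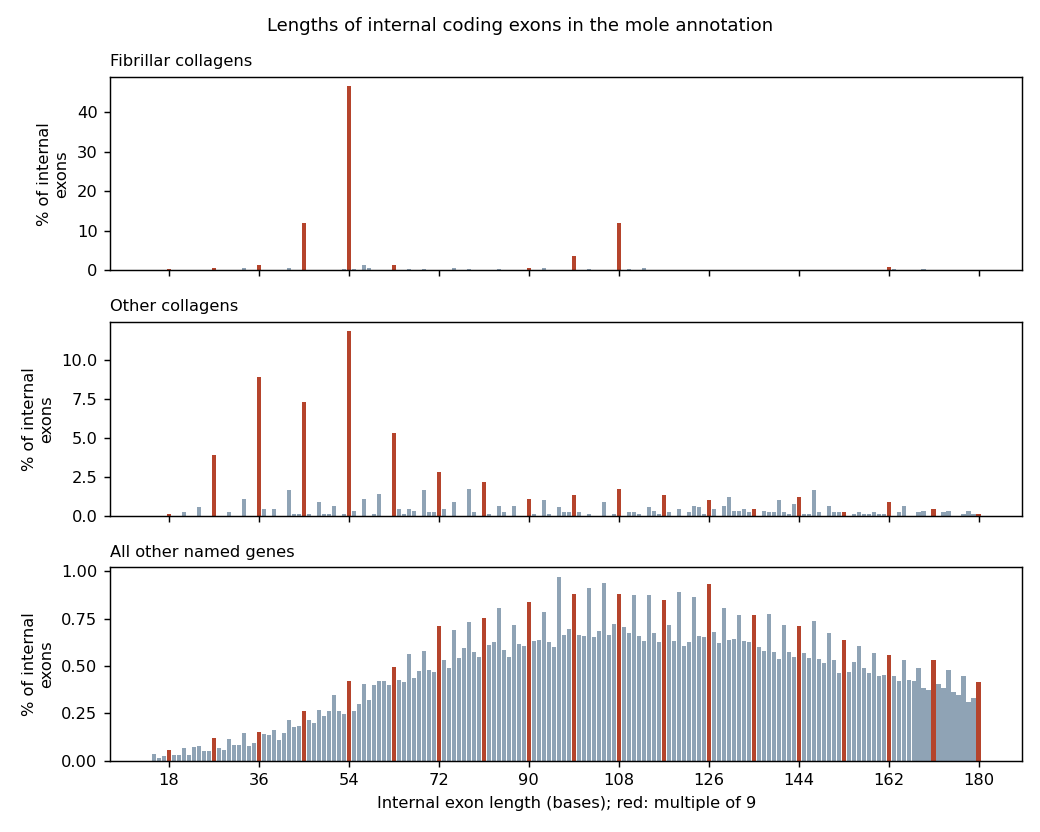
Percent of internal coding exons (vertical axis, scaled separately in each panel) at each exon length in bases, for fibrillar collagens, other collagens and all other named genes of the mole, with multiples of 9 in red. The fibrillar panel is led by 54 bases (46.6%), then its double and 45, while no length in the bottom panel passes 1% of the exons.

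The other classes had lower shares, and most were led by another length. The FACITs, fibril-associated collagens whose helix is interrupted, had 168 of 319 internal exons in multiples of 9 (52.7%, interval 47.0 to 58.3%), led by 54 bases with 69 exons. The transmembrane collagens had 95 of 137 (69.3%), led by 27 bases with 23 exons. COL7A1, the chain of the anchoring fibrils of skin, had 76 of 115 (66.1%), led by 36 bases with 26 exons. The beaded filament chains of type VI had 40 of 79 (50.6%), led by 63 bases with 14 exons, and the basement membrane chains of type IV had 97 of 208 (46.6%, interval 39.7 to 53.7%), led by 12 units of 9 bases with 11 exons. In type IV only 19 exons (9.13%) had 45 or 54 bases. COL15A1, a multiplexin of basement membrane zones, had 13 of 39 (33.3%), and the chains COL26A1 and COL28A1, placed in no class, had 10 of 23 together (43.5%). The short-chain network collagens COL8A1, COL8A2 and COL10A1 had 2 internal exons in all, both in COL8A2 and neither a multiple of 9.

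Within the classes the genes differed widely. In the fibrillar class the shares lay between 68.8% in COL11A2 (44 of 64 exons) and 91.2% in COL24A1 (52 of 57). COL1A1 and COL1A2, the chains of type I collagen of bone and skin, had 88.9% (40 of 45) and 88.5% (46 of 52), and COL2A1, the cartilage collagen, had 84.1% (37 of 44). The widest range was that of the FACITs, with 82.2% in COL19A1 (37 of 45) but 27.3% in COL14A1 (12 of 44) and 19.7% in COL12A1 (12 of 61). COL12A1 and COL14A1 are known for long non-helical arms and a short helix, and the mouse genes gave similarly low shares of 22.2% and 28.9%. Among type IV chains, COL4A6 had 61.0% (25 of 41) and COL4A4 had 54.8% (23 of 42), whereas COL4A3 and COL4A5 had 40.8% each (20 of 49).

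**Figure D2:**
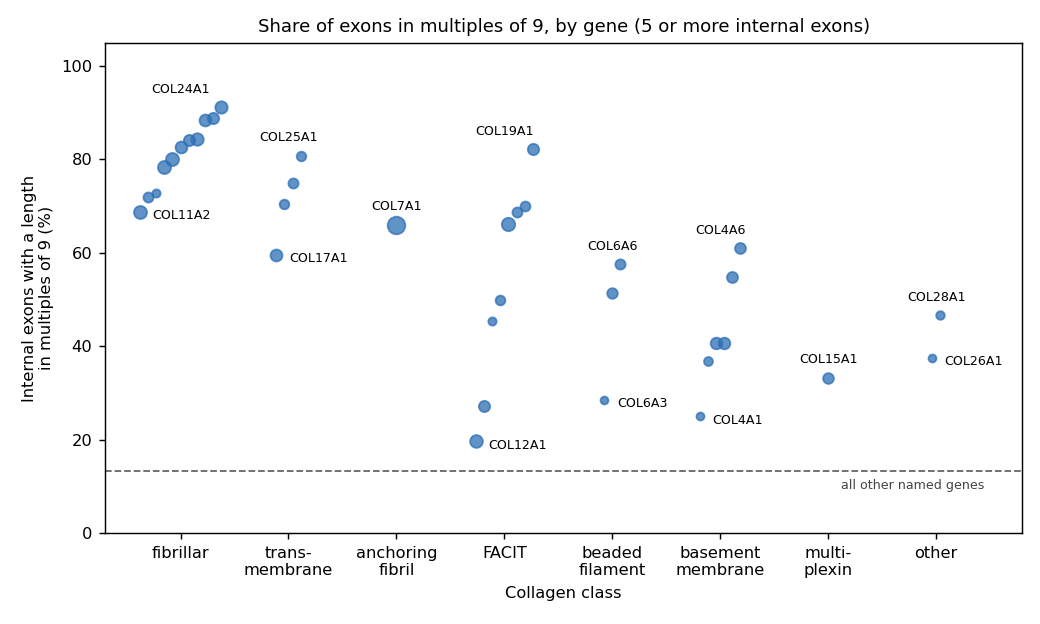
Percent of internal exons in multiples of 9 for each collagen gene with 5 or more internal exons, by class, with the symbols of the highest and lowest gene of a class written beside them; larger points have more internal exons. All points lie above the dashed line, the 13.4% of all other named genes; COL24A1 is the highest fibrillar gene at 91.2% and COL12A1 the lowest FACIT at 19.7%.

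Ranked among all 4955 named genes with at least 10 internal exons, 53 had a share of 50% or more, of which 25 were collagens and 28 were not. The collagens with at least 10 internal exons numbered 33. The gene at the top of the ranking was not called a collagen. It was MARCO, a scavenger receptor of macrophages with a collagen-like stalk, with 11 of 12 internal exons in multiples of 9 (91.7%). COLQ, the collagen-tailed anchor of acetylcholinesterase, had 8 of 14 (57.1%). Other genes past 50% included SCUBE3 (14 of 19), ANK2 (21 of 35) and the leucine-rich repeat receptor LGR5 (10 of 15), which hold repeats of other kinds. At the lower end, COL12A1 ranked 1102 in the same list.

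The runs of such exons were long in the fibrillar genes. COL5A3 and COL11A1 each had 48 consecutive internal exons in multiples of 9, the same number as in their mouse genes. The run was of 43 exons in COL1A2 and of 42 in COL5A2, again as in the mouse. COL24A1 had a run of 38 in both species. In the other 6 fibrillar genes the run was shorter in the mole. Among those with a single locus, COL1A1 had 28 in the mole and 41 in the mouse, COL11A2 had 16 and 48, and COL27A1 had 29 and 38. Among those in pieces, the best locus of COL2A1 had 35 against 42 in the mouse, that of COL5A1 23 against 47 and that of COL3A1 7 against 42. In type IV genes the longest runs were of 8 exons in COL4A5 and 7 in COL4A6, with 9 and 7 in the mouse, and COL7A1 had a run of 9 in both species.

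In COL1A1 a single exon marks the place where the run ends. Exon 31 of the mole model has 326 bases, where the mouse has 2 exons of 54, and the 11 exons in multiples of 9 that follow are in phase 1, meaning that 1 base belongs to a codon begun in the exon before. These 11 are the only phase 1 exons among the 445 of the fibrillar class. In COL11A2 the exons without a partner of equal length included 59 and 55 bases for exons 31 and 32, where the mouse has 54 and 54. Exons 45 and 46 had 58 and 104 bases, which together make 18 units of 9 bases. The mole sequence was not used here, so the exon boundaries of these models were not checked.

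The reading phase differed between the classes. Of the fibrillar exons in multiples of 9, 430 of 445 began on a codon boundary (96.6%), against 56.6% of 17475 such exons in the other named genes. FACITs had 151 of 168 on a boundary (89.9%) and beaded filament chains 32 of 40 (80.0%). The transmembrane class was divided by gene. All 24 such exons in COL13A1, all 19 in COL23A1 and all 21 in COL25A1 began on a codon boundary, while COL17A1 had 0 of 31, all 31 being in phase 2, the phase of the split glycine codon shown above. In the mouse Col17a1 gene the same 31 of 31 followed a single base of a begun codon, and 15 of them had glycine codons at every unit, with a split one at both ends.

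Type IV genes changed phase along their length. With each model's exons divided at the middle of its exon count, 41 of 49 exons in multiples of 9 of the upstream portion began on a codon boundary (83.7%), against 0 of 48 in the downstream portion. COL4A5 had 11 of 11 upstream and 0 of 9 downstream, COL4A3 had 10 of 11 and 0 of 9, COL4A4 had 10 of 12 and 0 of 11, and COL4A6 had 10 of 11 and 0 of 14. The best loci of COL4A1 and COL4A2 hold the downstream end of the gene and had 0 of 2 and 0 of 7 on a boundary. They gave 2 exons each to the 49, although their upstream portion is not the upstream end of the gene. In the mouse type IV genes, 65 such exons began on a boundary and 69 after 1 base, and 59 and 48 of them, in that order, had glycine codons at every unit, counting the split codons at both ends of the 48. In the FACIT genes with long arms the exons on a boundary lay downstream, with 0 of 3 upstream and 5 of 9 downstream in COL12A1. COL14A1 had 0 of 4 and 6 of 8. In their mouse genes 8 and 7 such exons began after 1 base. Of these, 0 in either gene had glycine codons at every unit with a split one at both ends, unlike type IV.

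**Figure D3:**
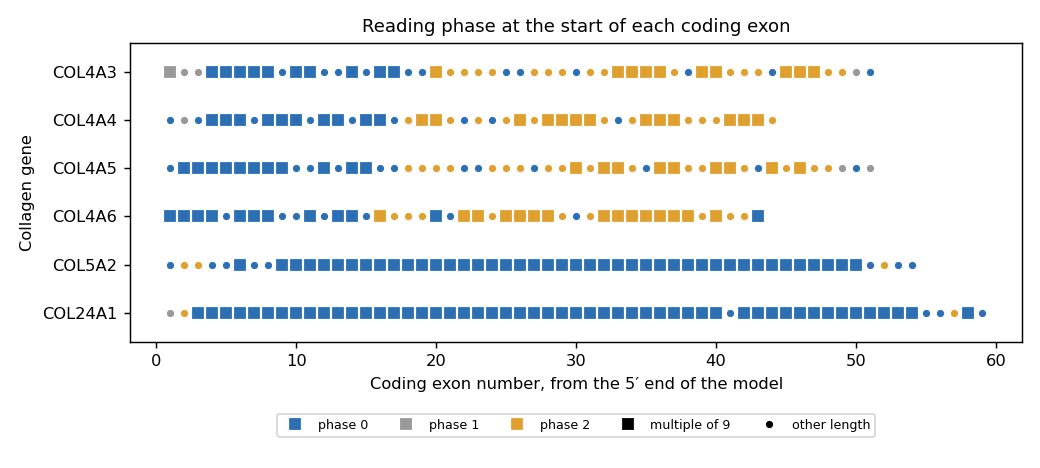
Phase at the start of each coding exon, by exon number from the 5′ end, in 4 type IV genes and the fibrillar genes COL5A2 and COL24A1; squares are exons in multiples of 9, dots are other lengths. Squares are blue (phase 0) on the left and orange (phase 2) on the right in the type IV genes, and blue throughout COL5A2 and COL24A1.

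The 40 best loci had a median of 40 exons (range 2 to 117) and a coding length of 4327.5 bases (930 to 9915), against 7 exons and 1305 bases over the other named genes. Over all 61 loci, the further loci of a symbol included, the medians were 22 exons and 2322 bases. COL7A1, on the minus strand of scaffold 12 between 33703140 and 33735769, had the most exons, 117, and the longest coding part, 9915 bases. Its introns were short, with a median of 119.5 bases, and the whole gene spanned 32.6 kb. Fibrillar models had a median of 54 exons and 5061 coding bases, from 13 exons in COL3A1 to 67 in COL5A3 and COL11A1. FACIT models ran between 13 exons in COL22A1 and 70 in COL16A1, type IV models between 10 in COL4A1 and 51 in COL4A3 and COL4A5, beaded filament models between 4 in COL6A2 and 39 in COL6A5, and transmembrane models between 28 in COL25A1 and 54 in COL17A1. The best loci of COL3A1, COL22A1 and COL4A1 hold only part of the gene. With the loci of a symbol on 1 scaffold and strand joined, the fewest exons were 43 in fibrillar, 30 in FACIT and 38 in type IV models. The short-chain collagens COL8A1 and COL10A1 had 2 exons each, as in the mouse, and COL8A2 had 4 where the mouse has 2.

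The spans of the best loci, measured over coding parts, had a median of 52.1 kb, against 13.2 kb over the other named genes, and 28.3 kb over all 61 collagen loci. COL6A6, a chain of type VI, was the widest at 301 kb, on scaffold 12, followed by COL19A1 at 275 kb on scaffold 7 and COL24A1 at 249 kb on scaffold 2. COL8A2 was the narrowest at 2.96 kb. Spans of models with the same exon number differed. COL1A2 placed 54 exons in 36.2 kb with a median intron of 413 bases, and COL5A2 placed 54 in 128 kb with 985 bases. COL1A1, with 47 exons, spanned 14.2 kb with a median intron of 143 bases. Against the mouse gene, with the loci of a symbol on 1 scaffold and strand joined, 12 of 39 collagens were wider in the mole (median ratio 0.906). Among 5239 other genes with a single locus and at least 10 exons, 33.1% were wider (median ratio 0.880). Neither limit was set for the collagens. The ratio was highest in COL6A6, with 301 kb in the mole and 99.5 kb in the mouse (3.02). COL6A5, on the same scaffold, followed with 210 kb and 91.1 kb (2.30). It was lowest in COL26A1, with 14.7 kb in the mole and 140 kb in the mouse (0.105). COL23A1 (0.200) and COL4A6 (0.207) followed. The exon number was 10 in COL26A1 against 13 in the mouse, 29 in COL23A1 as in the mouse, and 43 in COL4A6 against 45. Mouse exons 1 to 4 and 13 of COL26A1 had no exon of equal length in the same order in the mole model. The same held for exons 1 to 3, 17, 28 and 29 of COL23A1 and 1 to 3 of COL4A6. The equal exon number of COL23A1 therefore does not mean the same exons. The part of unmatched exons in the low ratios was not tested.

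Exon by exon, the mole models were set beside the mouse transcript with the longest coding part, counting exons of equal length in the same order, again with loci joined. Over the 39 collagens with a mouse gene of the same symbol, 1445 of 1827 mouse exons had an equal partner (79.1%), against 79.3% in the other genes with a single locus and at least 10 exons. A length of 54 bases makes up 46.6% of fibrillar internal exons and 0.422% of those in other genes, so exons at different places can pair more easily in collagens. How far this raised their share was not tested. COL21A1 had no mouse gene. COL5A2 matched in all 54 exons, COL1A2 in 50 of 52, COL24A1 in 57 of 60, COL4A5 in 50 of 53, COL12A1 in 60 of 65 and COL7A1 in 106 of 118. In COL24A1 and COL4A5 the mouse exons without a partner were the first 3 of the gene. In the 24 collagens with a single locus 84.8% of mouse exons matched. Exon number was equal in 10 of 39 collagens (25.6%) and in 7 of the 24 with a single locus (29.2%). Among the other genes with a single locus and at least 10 exons, it was equal in 37.1%. That floor was not set for the collagens, and COL8A1 and COL10A1, with 2 exons each, are among the equal ones. The models that lacked most were COL22A1, with 32 exons in 3 loci against 63 in the mouse, COL5A1, with 43 in 3 loci against 66, COL6A2, with 4 against 27, and COL28A1, with 17 against 34. COL15A1 had the largest excess, 45 exons in 2 loci against 40.

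**Figure D4:**
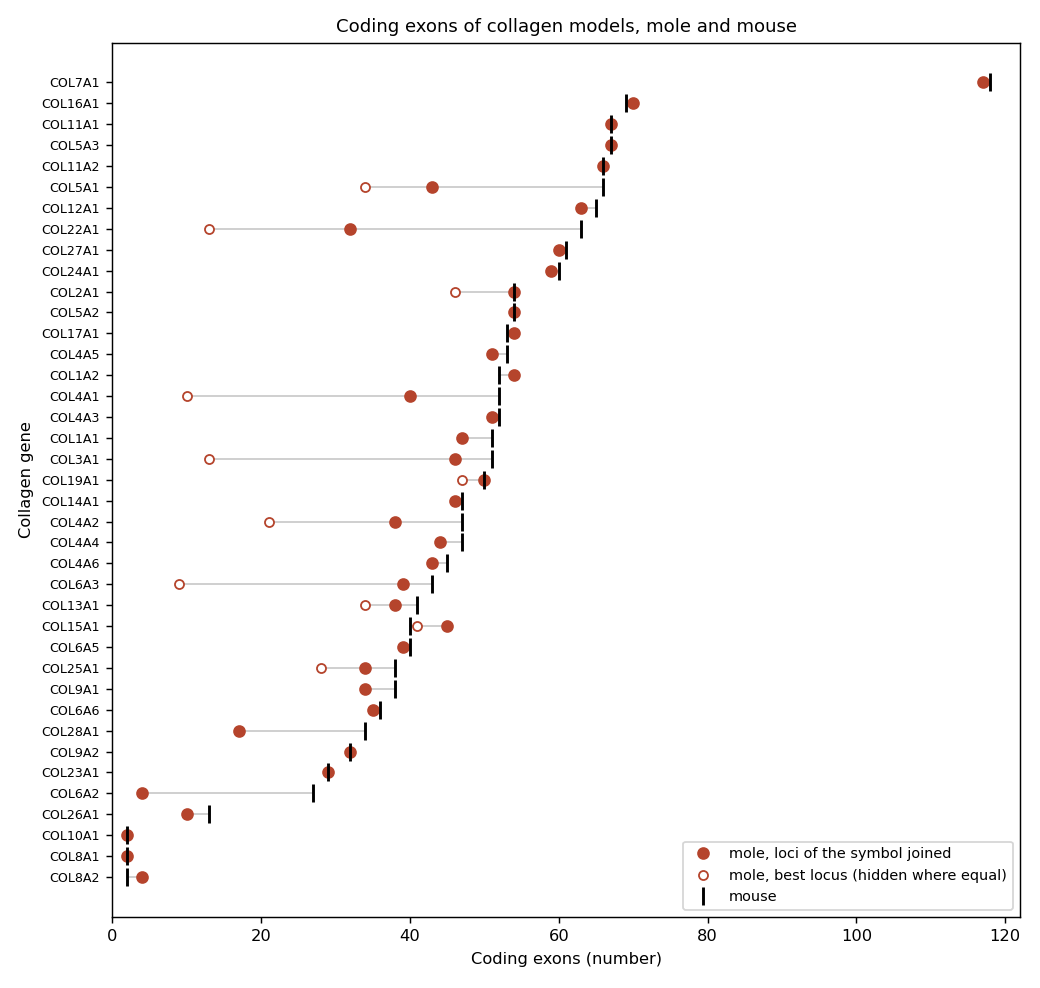
Number of coding exons of each collagen, as the mole loci of a symbol joined (filled circles), the mole best locus (open circles, hidden where equal) and the mouse gene (black bars). Most filled circles lie within a few exons of the bar; COL22A1, COL5A1, COL6A2 and COL28A1 lie furthest to its left.

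The end of the fibrillar genes encodes the C-propeptide, the part of a procollagen chain that selects its partners and is cut off outside the cell. The last coding exon, stop codon included, had 147 bases in 7 of 11 mole genes and in 9 of 11 mouse genes. Compared by position from the end, the last 4 exons were all of equal length in mole and mouse in COL1A1, COL1A2, COL2A1, COL5A2, COL11A2, COL24A1 and COL27A1. In COL1A1 they were 283, 191, 243 and 147 bases in both. By the same count none of the 4 was equal in COL3A1, COL5A1 and COL11A1, although equal lengths can stand at another position. In COL11A1, 113 and 69 bases occur in both, followed by 273 bases in the mole and by 234 and 147 in the mouse. In COL5A1 the mouse exons 62 to 66 had no equal partner. Its aligned intervals of the reference transcript came to 47.3% of the mouse coding length. Whether the COL5A1 model reaches the C-propeptide was not tested. The mole model of COL3A1 ended with exons of 188, 243, 123 and 213 bases, and the mouse gene with 295, 188, 243 and 147, so 188 and 243 occur in both.

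A large part of the collagens was divided over several gene lines. Of 40 symbols, 15 had more than 1 locus (37.5%), against 14.6% of the 16156 other symbols. Among other genes with at least 30 exons at the best locus 16.1% did. The 21 further loci were of 3 kinds. Of these, 12 from 8 symbols lay on the scaffold and strand of the best locus, named the same reference transcript, overlapped its aligned interval by at most 10% and followed its order, so that together they read as consecutive pieces of 1 gene. Such a piece was found in 20% of collagen symbols, against 2.33% of all other symbols and 4.54% of the 595 other symbols with at least 30 exons at the best locus. The collagens had no such floor, and a gene in pieces can fall below it, so the 2 sets are not alike. Of the collagens in pieces, COL3A1, COL4A1, COL4A2 and COL22A1 had fewer than 30 exons at the best locus. COL2A1, COL5A1, COL15A1 and COL19A1 had more.

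COL4A1, a chain of the commonest basement membrane collagen, was in 4 pieces on scaffold 39, minus strand, with 10, 4, 16 and 10 exons in the order of the reference transcript, between positions 12453829 and 12488022. Between these pieces lay a model with no symbol and 5 exons, from 12480961 to 12482554, whose 3 internal exons had 146, 45 and 54 bases. COL4A2 was in 2 pieces of 17 and 21 exons on the same scaffold. COL3A1, the collagen of reticular fibres, was in 2 pieces on scaffold 23, with 33 exons from 3046260 to 3076706 and 13 exons from 3076748 to 3086257, only 41 bases apart. COL2A1 had 46 exons and then 8, with 15 bases between the loci. COL5A1 had pieces of 34, 4 and 5 exons, COL22A1 of 13, 16 and 3, COL19A1 of 47 and 3, and COL15A1 of 4 and 41.

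**Figure D5:**
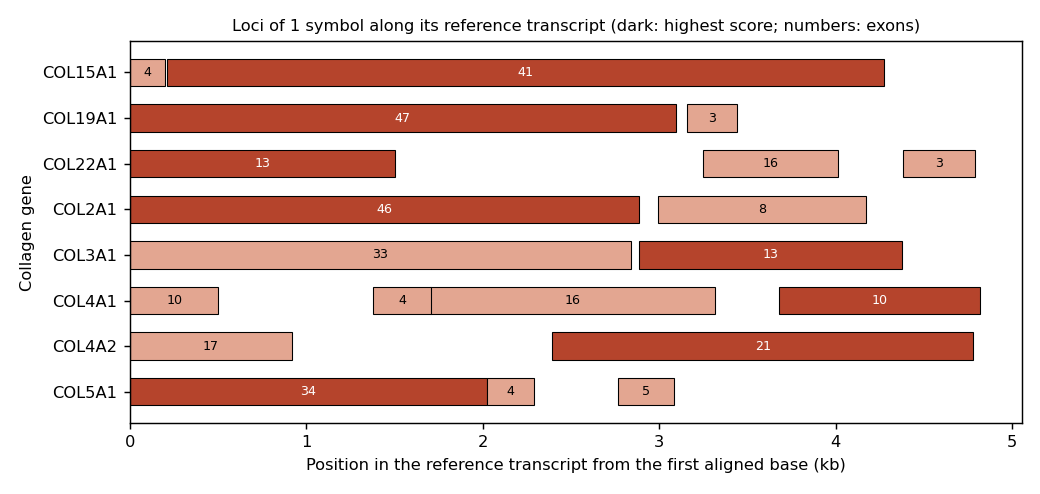
Interval of the reference transcript (kb from the first aligned base) covered by each locus of the 8 collagens in consecutive pieces; dark bars are the locus with the highest score, and numbers are exons. The bars of a gene lie side by side, overlapping by at most 10% of the shorter, with open stretches in COL4A1, COL4A2, COL5A1 and COL22A1.

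A further 5 loci, of COL6A3, COL13A1 and COL25A1, lay on the same scaffold and strand as the best locus but named another reference transcript, so their order could not be read. COL6A3 alone had 4 loci on scaffold 23, with 9, 3, 5 and 22 exons. The last 4 loci were on other scaffolds and were short. COL11A1_copy2 had 5 exons and 600 coding bases on scaffold 7, COL7A1_copy2 had 6 exons and 480 bases on scaffold 8015, COL14A1_copy2 had 3 exons and 314 bases on scaffold 650, and COL6A6_copy2 had 1 exon of 237 bases on scaffold 9. The last is the only collagen locus with the source label exonerate; the other 60 are labelled EVM. No collagen locus carried a low-confidence mark.

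The deposited interval of the reference transcript shows how much of a gene a locus accounts for. It was set against the mouse coding length, and it counts from end to end, so gaps inside it are not seen and it can pass 100%. The median over the best loci was 94.6%. The interval was as long as the mouse coding part or longer in COL5A2 (100%), COL7A1 (100%), COL8A1 (100%), COL12A1 (100%), COL17A1 (101%) and COL1A2 (111%). It was shortest in COL4A1 with 22.8%, COL22A1 31.1%, COL3A1 33.9%, COL5A1 36.7% and COL4A2 46.5%. Adding the other loci that name the same transcript brought COL3A1 to 98.5%, COL2A1 to 90.9% (64.6% in the best locus), COL4A1 to 71.4%, COL4A2 to 64.4%, COL22A1 to 55.3% and COL5A1 to 47.3%. COL6A2 is a case where the interval and the exons differ, at 71.9% of the coding length by interval with 4 of 27 exons.

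The score, which the sources used here do not define, was highest in COL12A1 at 12940 and lowest in COL6A2 at 399, with a median of 3126 over the 40 symbols. By class the median was 5694 in fibrillar, 5494.5 in beaded filament, 4562.5 in type IV, 3580.5 in FACIT, 2638 in short-chain and 1570.5 in transmembrane collagens. Per base of the aligned interval the median was 1.12 in collagens, against 1.25 in the other named genes. The extremes were 1.46 in COL11A1 and 0.179 in COL6A2, and COL17A1, with 54 exons against 53 in the mouse, had only 0.353.

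Type IV genes are known in mammals to lie in head-to-head pairs that share a promoter region. All 3 pairs were found in the mole on 1 scaffold each, on opposite strands with the 5′ ends facing and no other model between them. COL4A4 (minus, 31525032 to 31613098) and COL4A3 (plus, 31680185 to 31746138) lay on scaffold 23 with 67.1 kb between the 5′ ends of the models, against 15.9 kb in the mouse on chromosome 1. COL4A6 (minus, 18841243 to 18904792) and COL4A5 (plus, 19201139 to 19313233) lay on scaffold 32 with 296 kb, against 1.92 kb in the mouse on chromosome X. COL4A1 (minus) and COL4A2 (plus) lay on scaffold 39, where the nearest pieces, from 12483732 to 12488022 and from 12597812 to 12611361, were 110 kb apart, against 0.864 kb in the mouse on chromosome 8. No pair therefore lay within 10 kb. In the mole models the aligned interval of the reference transcript began at base 512 in COL4A5, 274 in COL4A6, 258 in COL4A3 and 395 in COL4A4, and at 8255 and 667 in the facing pieces of COL4A1 and COL4A2. These positions need not count from the start of the coding part. The COL4A1 pieces lay at bases 8255 to 13072, while the mouse coding length is 5010, so 8255 is not a number of missing coding bases. At the 5′ end, mouse exons 1, 2 and 3 had no equal partner in the mole in COL4A1, COL4A5 and COL4A6, nor had exons 1 to 6 in COL4A2, exons 1 and 3 in COL4A3 and exon 1 in COL4A4. The distances are therefore those between the first coding exons of the models. The part of unmatched first exons in the distances was not tested.

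The other 2 pairs of neighbouring collagens lay tail to tail, as in the mouse. COL3A1 and COL5A2 lay 15.0 kb apart on scaffold 23, against 27.3 kb in the mouse. COL19A1 and COL9A1 lay 9.30 kb apart on scaffold 7, against 12.8 kb.

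Of the 45 listed chains, 5 had no locus. They were COL9A3, a partner chain of the type IX collagen of cartilage, COL20A1, COL6A1, COL6A4 and COL18A1, the source of the endostatin fragment. The later mole assembly MPIMG_talOcc4v2.1, used here for names only, lists 42 collagens, among them COL9A3, COL6A1 and COL18A1, and 39 of the 42 have a talOcc3 locus. COL19A1 is in talOcc3 and is not named there. In talOcc3, COL6A2 and SLC19A1, which lie on either side of Col6a1 in the mouse, were on scaffold 4 with 106 kb between them and 0 models in the gap. COL6A2 and POFUT2, on either side of Col18a1 in the mouse, were 170 kb apart on the same scaffold with 1 model between them, that of SLC19A1. Around the place of COL9A3 and of COL20A1 the flanking models overlapped on scaffold 2, TCFL5 within OGFR and ARFGAP1 within CHRNA4. No pair of flanking genes was found for COL6A4.

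The genes that make and handle collagen were nearly all present. Of 47 listed genes, 46 had a locus. They comprised 18 of 18 for biosynthesis, such as the prolyl hydroxylase P4HA1 and the collagen chaperone SERPINH1, 13 of 13 for processing and cross-linking, such as the propeptidase BMP1 and the lysyl oxidase LOX, 9 of 10 receptors and 6 of 6 collagenases. The inhibitory receptor LAIR1 had no locus. P4HA2, CRTAP, MIA3 and ADAMTS14, 4 of the 46, had several loci, against 14.6% of all symbols other than collagens. Counting only loci of more than 1 exon, P4HA2 and ADAMTS14 did. Of 30 listed genes with collagen-like repeats that are not called collagens, 24 had a locus. Of their 106 internal exons, 43 were multiples of 9 (40.6%, interval 31.1 to 50.5%), against 13.4% in all named genes other than collagens. COLEC11, SFTPA1, FCN1, FCN2, C1QTNF5 and C1QTNF9 had no locus. MSR1 and EMID1 had several loci, and in MSR1, another macrophage scavenger receptor, all 4 internal exons of the best locus were multiples of 9. C1QA, C1QB and ADIPOQ had 2 exons each and so no internal one.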

How the data were processed

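STAR 2.6.1d and mm9, a mouse build, are listed in the submitters' processing notes without a role. The deposited file is an annotation of talOcc3 with 23336 gene lines; start, end and exon positions are 1-based as deposited. The score of each model was deposited by the authors, and the sources used here do not define it. The columns of per-sample values not used number 0. Gene, exon and coding positions, phase and the interval of the named reference transcript were read with Python 3 scripts. Mouse genes came from GENCODE M21 (GRCm38), taking for each symbol the transcript with the longest coding part and joining the stop codon to the last exon. No coordinate was converted between builds. The background was every other named gene, at its best locus.

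Internal exons exclude the first and last coding exon. Exons were paired by equal length in the same order, which cannot tell neighbouring exons of equal length apart. A further locus counted as a piece when its aligned interval overlapped the best by at most 10%. That rule, and joining the loci of a symbol, were chosen after seeing the data. The steps were tested on simulated models. The members, classes and gene lists were chosen with earlier results of these data known. Every collagen could be named, and of the listed genes those with no or several loci. Alternatives covered the choice of locus, source, scaffold size, frame, merged exons, pair distance and mouse transcript.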

Additional observations from a re-analysis of the deposited data

How the results depend on the processing

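No paired analysis was possible because the annotation holds no value per library. Of 170 alternative values, 153 stayed within the exact binomial interval of a share or within 1.5 times a median or count, and 17 did not. Many of the 153 could not move. No collagen locus had a low-confidence mark, and no best locus lacked the EVM label, lay on a scaffold below 1000000 or had exons to merge. Under those settings the best loci, and so their shares and medians, were the same as in the main setting, and this part of the tally shows no stability. Members are not replicates, so their spread was not used as a measure. Requiring a codon boundary as well lowered the share in multiples of 9 to 19.7% in type IV genes and 54.9% in all collagens, and counting first and last exons gave 61.5% in all collagens and 30.5% in the collagen-like genes. With all loci in place of the best, the medians were 22 exons, 2322 coding bases, a span of 28261 bases, a coverage of 66.7% and a score of 1919, and the fibrillar median score was 2933.5; with coding lengths in multiples of 3 only, that score was 3255. Names as written gave 61 symbols and 0 with several loci, and a floor on the score at 50% of the highest left 2 with several loci. Head-to-head pairs numbered 1 within 100 kb and 3 at any distance. With the best locus alone, 73.3% of mouse exons matched. Loci of more than 1 exon left 2 machinery genes with several. Leaving out replicates and depth do not apply to gene models.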

Other observations

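Of the 61 collagen loci, the 40 best loci were all labelled EVM and all lay on scaffolds annotated to 1000000 or beyond, and 4 of them had a coding length that is not a multiple of 3. No exons of a best locus lay closer than 30 bases to each other. COL1A2 had a second exon of 879 bases that has no equal in the mouse gene, and COL11A2 a sixth exon of 486 bases where the mouse has 78.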
